A study of Rattus norvegicus with 28 samples.

Results

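The 10 genes described here belong to the antioxidant programme of the transcription factor NRF2. They are Nfe2l2, which encodes NRF2 itself, its inhibitor Keap1, and the target genes Gclc, Gclm, Gsr, Txnrd1, Prdx1, Srxn1, Nqo1 and Hmox1. They were picked by symbol among the 17455 gene symbols of the deposited expression table, with the transcript of highest mean level kept where a symbol had more than one. All 10 were among the 10275 genes kept for testing, those averaging 1 TPM or more (a level scaled to the library total and divided by transcript length), and 9 of them had a single transcript in the table.

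The RNA came from INS-1 cells, a rat insulinoma line used as a model of the pancreatic beta cell, of 2 genotypes. WT cells were compared with Med14 S983A cells, in which a serine of the Mediator subunit MED14 had been replaced by alanine (S983A) through CRISPR knock-in followed by isolation of single cells, so that each knock-in line is 1 clone; which line gave each library was not stated. Cells of both genotypes were placed in medium without serum and then left untreated (CON) or given 10 nM Exendin-4 (Ex-4), which binds and activates the receptor for GLP-1, or 10 µM forskolin (FSK), which activates adenylyl cyclase directly, for 1, 8 or 16 h. This gave 14 groups of 2 libraries, and the comparisons ask how the 2 agents changed expression over time and whether the S983A substitution altered that response.

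NRF2 is held in the cytoplasm by KEAP1, which hands it to a cullin ubiquitin ligase for degradation. Oxidants and electrophiles modify cysteines of KEAP1, whereupon NRF2 accumulates, pairs with small MAF proteins and binds antioxidant response elements in front of genes for glutathione synthesis, the thioredoxin cycle and detoxification. Beta cells are known for low levels of several antioxidant enzymes, catalase and glutathione peroxidases among them.

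The promoters of the 5 target genes below are shown because they carry the letters of the antioxidant response element. On the TPM scale the mRNA of Nqo1 was called in no comparison. That of Gclm was called only between Ex-4 and FSK at 16 h in Med14 S983A. With other scalings or tools Nqo1 was called in some comparisons, as given below. They are RefSeq sequences of the rat assembly GRCr8, each running from 250 bases before the annotated start to 10 bases after it, on the strand of the gene. Capitals mark matches to TGANNNNGC on either strand.
Srxn1, chr3:161064562-161064821, plus strand: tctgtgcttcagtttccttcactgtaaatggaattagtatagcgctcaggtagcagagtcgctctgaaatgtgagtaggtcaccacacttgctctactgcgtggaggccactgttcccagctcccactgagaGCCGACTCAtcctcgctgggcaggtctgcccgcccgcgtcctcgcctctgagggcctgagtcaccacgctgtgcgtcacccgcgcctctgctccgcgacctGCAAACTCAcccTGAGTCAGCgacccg
Gclm, chr2:213031885-213032144, plus strand: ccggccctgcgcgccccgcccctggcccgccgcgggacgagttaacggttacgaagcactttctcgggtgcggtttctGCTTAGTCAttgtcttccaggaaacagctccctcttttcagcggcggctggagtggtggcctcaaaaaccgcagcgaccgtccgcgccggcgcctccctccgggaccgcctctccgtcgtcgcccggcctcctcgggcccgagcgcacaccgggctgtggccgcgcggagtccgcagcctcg
Prdx1, chr5:135383656-135383915, plus strand: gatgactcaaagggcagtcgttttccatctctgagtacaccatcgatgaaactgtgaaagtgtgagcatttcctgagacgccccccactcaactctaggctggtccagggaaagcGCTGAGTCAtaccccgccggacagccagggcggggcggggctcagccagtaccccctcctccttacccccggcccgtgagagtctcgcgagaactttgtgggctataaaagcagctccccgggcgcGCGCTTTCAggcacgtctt
Txnrd1, chr7:22755895-22756154, minus strand: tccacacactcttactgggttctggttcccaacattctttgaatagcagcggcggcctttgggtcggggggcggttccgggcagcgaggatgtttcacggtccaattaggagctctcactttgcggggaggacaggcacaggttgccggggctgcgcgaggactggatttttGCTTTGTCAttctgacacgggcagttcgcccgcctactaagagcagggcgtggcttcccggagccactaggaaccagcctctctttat
Nqo1, chr19:52220258-52220517, minus strand: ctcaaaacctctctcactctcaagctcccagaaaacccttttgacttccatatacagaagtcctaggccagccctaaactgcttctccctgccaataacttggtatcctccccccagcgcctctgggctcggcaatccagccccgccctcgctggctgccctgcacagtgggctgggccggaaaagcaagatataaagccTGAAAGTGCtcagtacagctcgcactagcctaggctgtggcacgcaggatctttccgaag
Of the 10 genes, 8 had an entry in the promoter table, with 9 promoters between them since Txnrd1 had a pair; Gsr and Hmox1 had none. The search covered the whole window of 300 bases, 50 of them after the start, and both strands. TGANNNNGC was present in 7 of the 9 promoters, against 40.5% of the 33469 promoters in the table. The stricter TGACNNNGC, every match of which is also a match to TGANNNNGC, was present in 4 of the 9 promoters and in 12.1% of all promoters. In Gclm, Prdx1 and Txnrd1 its first base lay 172, 135 and 78 bases before the start, and in Nfe2l2 it was base 39, counting the start as base 1. The 3 matches of Srxn1, at 118, 17 and 5 bases before the start, fit the looser form, and so do that of Nqo1, at 50 bases before the start, and that of Keap1, at 32. The cAMP response element TGACGTCA was found in none of the 9 promoters and in 1.83% of all promoters, while its shorter form TGACG, which can overlap TGACNNNGC, was in 3 of the 9 (Srxn1, Nfe2l2 and Txnrd1) and in 21.2% of all. These are matches of letters only, and a promoter without a match lacks those letters in this window alone.

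Library depth ranged from 38200000 to 51300000 fragments, as recovered from the spike-in counts, apart from 1 library of 82900000, the second replicate of Med14 S983A at 8 h FSK. All 14 beta cell markers in the table, among them Ins1, Ins2, Pdx1 and Glp1r, averaged 1 TPM or more, and none of 10 stromal, endothelial and immune markers was. The beta cell markers differed in level between the genotypes, as for Ins2 (mean 2938 TPM in WT CON and 35070 TPM in Med14 S983A CON) and Slc2a2, the glucose transporter (517 and 62.6 TPM). Of 6 markers of the other islet endocrine cells only Gcg, the glucagon gene, reached 1 TPM; it differed between genotypes (mean 167 TPM in WT CON and 6.32 TPM in Med14 S983A CON), and the summed level of this list ranged from 6.13 to 1345 TPM over libraries. In the list of acinar and duct markers 2 of 8 reached 1 TPM, and the list summed to 9.73 to 123.2 TPM. The part of these markers in the results below was not tested, and in bulk RNA fewer cells of a type and less RNA per cell cannot be told apart.

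In untreated WT cells the 10 genes spanned more than an order of magnitude. Prdx1, a peroxiredoxin that reduces hydrogen peroxide, was the most abundant at 555.0 and 575.2 TPM in its 2 libraries, followed by Gsr, the reductase that regenerates glutathione, at 183.4 and 181.5 TPM. Txnrd1, thioredoxin reductase, stood at 125.4 and 121.2 TPM. Gclm, Keap1, Nfe2l2, Srxn1 and Nqo1 lay between 33.8 and 60.9 TPM, and Hmox1 and Gclc were lowest, at 18.1 and 16.8 TPM and at 13.5 and 12.8 TPM. Over the 14 groups, the ratio of the highest to the lowest group mean was widest for Hmox1, at 12.4, followed by Srxn1 at 6.2 and Gclc at 3.06, and narrowest for Keap1, at 1.43. The 2 libraries of a group lay close together for all 10 genes, with a median SD between 1.17% and 4.31% of the mean.

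Log2 changes below are on the log2(TPM + 1) scale with their SE, tested with limma in 1 model over all 14 groups, and a gene is called changed where the adjusted p was under 0.05 and the change exceeded 1.5-fold. Treatments of a genotype share its 2 CON libraries. Of the 120 values of the 10 genes in the 12 treatment comparisons, 26 were called, all of them higher than CON. They came mainly from 2 genes, Srxn1 with 11 and Hmox1 with 6, and otherwise from Med14 S983A cells. Among all genes, the share called higher ran from 1.75% (WT, 1 h Ex-4) to 12.2% (Med14 S983A, 16 h FSK) over these comparisons. In either direction the share in WT at 16 h was 11.8% with Ex-4 and 34.5% with FSK.

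**Figure D1:**
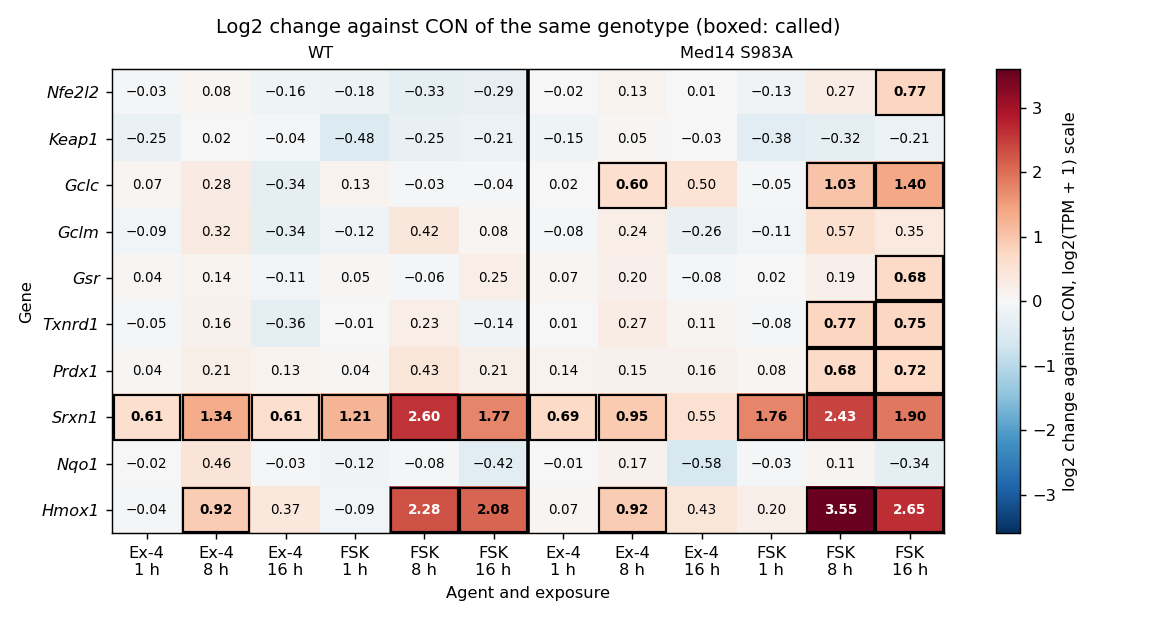
Log2 change of each of the 10 genes (rows) against untreated cells of the same genotype, for Ex-4 and FSK at 1, 8 and 16 h (columns) in WT (left) and Med14 S983A (right); color gives the change on the log2(TPM + 1) scale and boxed bold values were called. Srxn1 is boxed in 11 of 12 columns, and the column with most boxes is Med14 S983A at 16 h FSK, with 7 of 10 genes.

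Srxn1 (rn6 chr3:147608850-147614410, plus strand) encodes sulfiredoxin, the enzyme that repairs over-oxidized peroxiredoxins, and it was the only 1 of the 10 genes called at 1 h. Its level in WT CON was 41.3 and 38.0 TPM. It was 61.0 and 61.2 TPM after 1 h of Ex-4, and 94.9 and 91.2 TPM after 1 h of FSK. Both treated groups lay above both controls without overlap, and the changes were 0.61 ± 0.05 for Ex-4 (adjusted p = 1.37e-09) and 1.21 ± 0.05 for FSK (adjusted p = 5.98e-16). Among all genes, 1.75% were called higher at 1 h Ex-4 and 2.53% at 1 h FSK.

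Srxn1 was highest at 8 h. In WT cells it reached 101.8 and 102.4 TPM with Ex-4 and 249.8 and 242.0 TPM with FSK. At 16 h it stood at 60.2 and 61.9 TPM with Ex-4 and at 137.8 and 137.7 TPM with FSK. Thus all 12 treated WT libraries were above the untreated ones, with changes of 1.34 ± 0.05 (8 h Ex-4, adjusted p = 1.62e-16), 2.60 ± 0.05 (8 h FSK, adjusted p = 1.87e-23), 0.61 ± 0.05 (16 h Ex-4, adjusted p = 3.01e-10) and 1.77 ± 0.05 (16 h FSK, adjusted p = 4.25e-20). The Ex-4 calls at 1 and 16 h rested on 1 control library: without the second WT CON replicate these changes were 0.56 and 0.55, under 1.5-fold.

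In Med14 S983A cells Srxn1 started from a like level, 43.1 and 41.8 TPM. With Ex-4 it was 68.8 and 68.9 TPM at 1 h, 82.7 and 83.6 TPM at 8 h and 61.5 and 63.8 TPM at 16 h. With FSK it was 135.8 and 157.1 TPM at 1 h, 239.9 and 224.8 TPM at 8 h and 167.0 and 154.2 TPM at 16 h. All treated libraries were again above the untreated ones; 5 of the 6 changes were called, the smallest of these at 0.69 ± 0.05 (1 h Ex-4, adjusted p = 1.4e-10). At 16 h Ex-4 the change was 0.55 ± 0.05 (adjusted p = 1.88e-09), under the 1.5-fold minimum, and it passed when each library was centred on its median gene (0.61).

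No difference between genotypes in the Srxn1 response was called. The response in Med14 S983A minus that in WT was −0.06 ± 0.07 for 16 h Ex-4 (adjusted p = 0.547) and 0.12 ± 0.07 for 16 h FSK (adjusted p = 0.158). At 1 h FSK the difference was 0.55 ± 0.07 (adjusted p = 1.11e-05), larger in Med14 S983A but under 1.5-fold; it passed 1.5-fold without the second WT CON replicate (0.61) or the first Med14 S983A replicate at 1 h FSK (0.65). At 8 h Ex-4 the difference was −0.39 ± 0.07 (adjusted p = 0.000541), larger in WT and also under 1.5-fold.

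**Figure D2:**
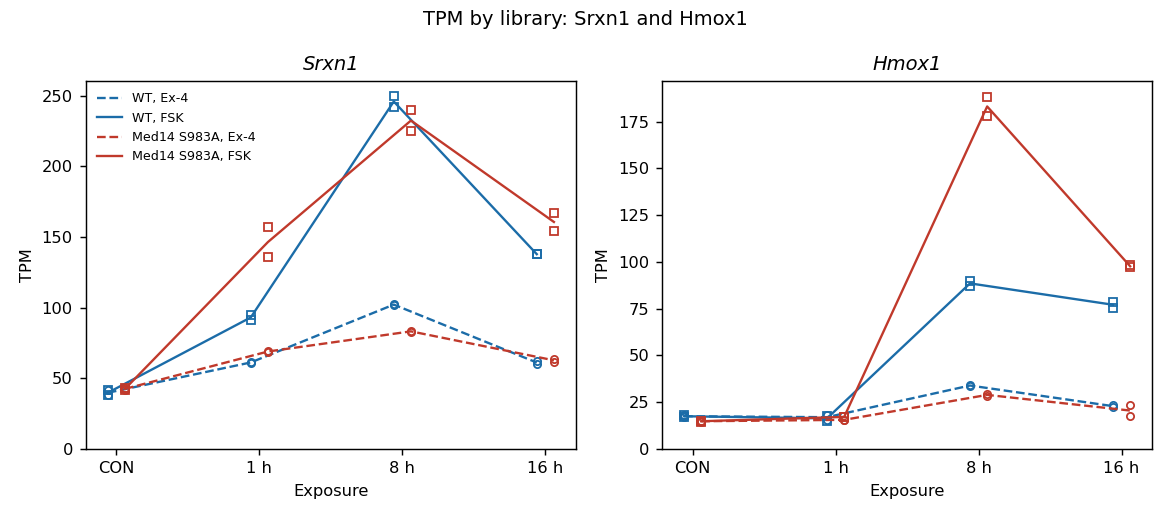
TPM of Srxn1 (left) and Hmox1 (right) in untreated cells (CON) and after 1, 8 and 16 h of Ex-4 (dashed, circles) or FSK (solid, squares), with WT in blue and Med14 S983A in red; symbols are single libraries and lines join the means of 2. Srxn1 is raised at 1 h and highest at 8 h in both genotypes, while Hmox1 is near its untreated level at 1 h and reaches 188.1 TPM in Med14 S983A at 8 h FSK.

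Hmox1 (rn6 chr19:14508634-14515456, plus strand) encodes heme oxygenase 1, which breaks heme down to biliverdin, iron and carbon monoxide, and its increase appeared later. After 1 h the libraries of both agents and genotypes lay between 15.003 and 18.2 TPM, close to the controls (18.1 and 16.8 TPM in WT, 14.5 and 14.99 TPM in Med14 S983A), and none of these comparisons was called. After 8 h of Ex-4 it was 33.7 and 34.1 TPM in WT and 29.6 and 28.1 TPM in Med14 S983A. Both groups cleared their controls by the same margin, 0.92 ± 0.08 in WT (adjusted p = 1.43e-09) and 0.92 ± 0.08 in Med14 S983A (adjusted p = 1.91e-09), and the difference between these responses was 0.00 ± 0.12.

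FSK raised Hmox1 further. At 8 h it was 87.1 and 89.9 TPM in WT and 188.1 and 178.3 TPM in Med14 S983A. At 16 h it was 75.6 and 78.6 TPM in WT and 97.2 and 98.2 TPM in Med14 S983A. No library of 1 genotype overlapped the other at either time. The changes in WT were 2.28 ± 0.08 at 8 h (adjusted p = 2.72e-18) and 2.08 ± 0.08 at 16 h (adjusted p = 2.45e-17), and those in Med14 S983A were 3.55 ± 0.08 (adjusted p = 3.15e-22) and 2.65 ± 0.08 (adjusted p = 1.93e-19). The response was larger in Med14 S983A by 1.27 ± 0.12 at 8 h (adjusted p = 3.64e-09), which was called, and by 0.56 ± 0.12 at 16 h (adjusted p = 0.000283), which fell short of 1.5-fold and passed it when any of 3 libraries was left out (0.61 without the second WT CON replicate, 0.59 without the second WT 16 h FSK replicate and 0.59 without the second Med14 S983A CON replicate).

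At 16 h Ex-4, Hmox1 was 22.3 and 23.4 TPM in WT and 17.6 and 23.4 TPM in Med14 S983A. Both libraries lay above their controls in each genotype, at 0.37 ± 0.08 and 0.43 ± 0.08, without reaching 1.5-fold. The WT value passed when TPM were rescaled to the ERCC spike-ins (0.69), and the Med14 S983A value passed without its first 16 h Ex-4 replicate (0.63).

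At 8 h of treatment in WT cells, Srxn1 and Hmox1 were the only 2 of the 10 genes called with either agent, against 3.61% of all genes called higher with Ex-4 and 8.77% with FSK. At 16 h, Srxn1 was the sole call with Ex-4 (3.53% of all genes called higher), and Srxn1 and Hmox1 were the calls with FSK (10.3% of all genes called higher). The remaining 8 genes in WT cells had changes between −0.48 and 0.46, none called.

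The scale of the FSK comparisons matters here, since most genes were lower than CON. At 8 h FSK the median of all tested genes was −0.34 in WT and −0.28 in Med14 S983A on the TPM scale, and −0.32 and −0.36 after rescaling to the ERCC spike-ins. At 16 h FSK it was −0.20 in WT and −0.10 in Med14 S983A on the TPM scale, but 0.16 and 0.12 with the spike-ins. The 10 genes had a median change at 8 h FSK of 0.10 in WT and 0.62 in Med14 S983A, and after centring on the median gene 0.49 and 0.96. With that centring, Gclm (0.81), Prdx1 (0.82) and Txnrd1 (0.62) also passed in WT at 8 h FSK; with the spike-ins they did not (0.44, 0.45 and 0.24).

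Gclc, 1 of the 2 genes of glutathione synthesis, separated the genotypes after FSK. It encodes the catalytic subunit of glutamate-cysteine ligase, which carries out the rate-limiting step, and spans rn6 chr8:85059051-85097470 on the plus strand. In WT cells it was 13.5 and 12.8 TPM untreated, 13.1 and 12.7 TPM after 8 h of FSK and 13.8 and 11.9 TPM after 16 h. These 3 groups overlapped, and the changes were −0.03 ± 0.07 and −0.04 ± 0.07 (adjusted p = 0.701 and 0.644 by limma).

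In Med14 S983A cells Gclc was 11.7 and 10.7 TPM untreated, 23.7 and 23.8 TPM after 8 h of FSK and 31.3 and 30.8 TPM after 16 h. The 16 h libraries were the highest of all 28. The change was 1.03 ± 0.07 at 8 h (adjusted p = 8.9e-13) and 1.40 ± 0.07 at 16 h (adjusted p = 2.67e-15), and the response exceeded that of WT by 1.06 ± 0.10 (adjusted p = 4.28e-09) and 1.43 ± 0.10 (adjusted p = 1.31e-11). Both differences were called under each of the other scalings and tools tried.

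With Ex-4, Gclc in Med14 S983A was 16.9 and 17.96 TPM at 8 h and 15.6 and 16.9 TPM at 16 h, above its controls. In WT it was 15.7 and 16.8 TPM at 8 h, and at 16 h it was below the controls at 9.78 and 10.5 TPM. The 8 h change in Med14 S983A was called at 0.60 ± 0.07 (adjusted p = 1.54e-07); it fell under 1.5-fold without the second Med14 S983A CON replicate (0.54) or the second 8 h Ex-4 replicate (0.56). At 16 h the changes were 0.50 ± 0.07 in Med14 S983A, not called by limma but called by edgeR (0.59) and DESeq2 (0.61), and −0.34 ± 0.07 in WT, which was −0.04 with the spike-ins. The difference between them, 0.85 ± 0.10 (adjusted p = 3.1e-07), was called. With TPM rescaled to the spike-ins that difference was 0.44 and no longer passed 1.5-fold.

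Gclm, the modifier subunit that makes the ligase more efficient, moved less. In WT it was 60.9 and 57.9 TPM untreated and 80.9 and 78.8 TPM after 8 h of FSK, and in Med14 S983A it was 75.1 and 65.6 TPM untreated and 106.3 and 102.6 TPM after 8 h of FSK. The treated libraries cleared the controls in both genotypes, at 0.42 ± 0.06 and 0.57 ± 0.06, and neither reached 1.5-fold. Both values were called with median centring (0.81 in WT and 0.90 in Med14 S983A). They were also called on recovered fragments with edgeR (0.75 and 0.84) and DESeq2 (0.78 and 0.88). The Med14 S983A value passed as well without the first Med14 S983A CON replicate (0.66) or without the most deeply sequenced library (0.59). The response to 8 h FSK differed between genotypes by 0.15 ± 0.08 (adjusted p = 0.125). At 16 h Ex-4 Gclm lay below CON on the TPM scale in both genotypes, by −0.34 ± 0.06 in WT and −0.26 ± 0.06 in Med14 S983A, within 1.5-fold; with the spike-ins these values were −0.01 and −0.37.

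Gsr uses NADPH to return oxidized glutathione to its reduced form. It stood at 129.9 and 128.4 TPM in untreated Med14 S983A cells, below both untreated WT libraries. After 16 h of FSK it stood at 217.1 and 217.8 TPM in WT and 212.4 and 203.2 TPM in Med14 S983A. Starting from the lower level, Med14 S983A cells rose by 0.68 ± 0.03 (adjusted p = 1.37e-15) while the WT value was 0.25 ± 0.03 (adjusted p = 2.17e-07), not called; with the spike-ins the WT value was 0.65 and was called. The difference between the responses was 0.43 ± 0.05 (adjusted p = 3.49e-08), under 1.5-fold.

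In the thioredoxin cycle, Txnrd1 returns thioredoxin to its reduced form with NADPH. It is listed with 4 transcripts that share exons, so its value rests on the most abundant of them. In WT it was 144.1 and 144.5 TPM at 8 h FSK and 110.9 and 112.9 TPM at 16 h, to either side of its control level. In Med14 S983A it was 95.5 and 87.2 TPM untreated, 159.0 and 153.2 TPM at 8 h FSK and 154.1 and 153.5 TPM at 16 h, well clear of the controls. The Med14 S983A changes of 0.77 ± 0.04 at 8 h (adjusted p = 1.25e-14) and 0.75 ± 0.04 at 16 h (adjusted p = 3.69e-14) were called. The response differed from WT by 0.54 ± 0.06 at 8 h, short of 1.5-fold (0.61 without the first Med14 S983A CON replicate), and by 0.89 ± 0.06 at 16 h (adjusted p = 9.75e-12), which was called. With 16 h of Ex-4, Txnrd1 in WT was 94.9 and 97.1 TPM, a difference from CON of −0.36 ± 0.04 on the TPM scale, within 1.5-fold, and of −0.03 with the spike-ins.

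Prdx1 in Med14 S983A was 680.6 and 619.7 TPM untreated, 1016 and 1062 TPM at 8 h FSK and 1083 and 1064 TPM at 16 h. In WT it was 771.3 and 753.2 TPM at 8 h FSK and 651.7 and 657.5 TPM at 16 h. The Med14 S983A changes, 0.68 ± 0.05 (adjusted p = 8.53e-13) and 0.72 ± 0.05 (adjusted p = 3.52e-13), were called, although the 8 h value was 0.58 with the spike-ins and then fell under 1.5-fold. The WT changes were 0.43 ± 0.05 and 0.21 ± 0.05, not called; the 8 h value was called with median centring (0.82), edgeR (0.75) and DESeq2 (0.79), and the 16 h value with the spike-ins (0.61). The genotypes differed by 0.25 ± 0.07 at 8 h and 0.51 ± 0.07 at 16 h, both under 1.5-fold. Reads of Prdx1 can be shared with near-identical copies elsewhere in the genome, so its level carries that uncertainty.

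Nfe2l2 itself (rn6 chr3:62497571-62524994, minus strand) rose with 16 h of FSK in Med14 S983A cells. In WT it was 46.3 and 44.9 TPM untreated, 36.9 and 35.2 TPM at 8 h FSK and 36.0 and 38.3 TPM at 16 h. In Med14 S983A it was 33.9 and 34.0 TPM untreated, 41.8 and 40.7 TPM at 8 h and 58.2 and 59.3 TPM at 16 h. The WT libraries lay below their controls on the TPM scale, by −0.33 ± 0.05 and −0.29 ± 0.05, within 1.5-fold; the 8 h value was 0.06 with median centring and the 16 h value 0.10 with the spike-ins, so that the sign depended on the scaling. The Med14 S983A libraries lay above theirs, by 0.27 ± 0.05 at 8 h, which was called with median centring (0.61) and DESeq2 (0.59) but not with ERCC scaling (0.18), and by 0.77 ± 0.05 at 16 h (adjusted p = 8.62e-13), which was called. The 2 genotypes differed by 1.06 ± 0.07 at 16 h (adjusted p = 1.13e-11), which every scaling and tool tried also called. At 8 h they differed by 0.60 ± 0.07 (adjusted p = 2.49e-07); this call fell under 1.5-fold with median centring (0.55), with the spike-ins (0.50), with edgeR (0.57) and with DESeq2 (0.57, or 0.53 with spike-in size factors), and also without the first WT CON replicate (0.58), the second WT 8 h FSK replicate (0.57) or the first Med14 S983A 8 h FSK replicate (0.58).

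Keap1 was the steadiest of the 10 genes and was not called in any comparison. Its lowest levels were at 1 h FSK, where it was 33.7 and 33.0 TPM in WT against 47.6 and 46.2 TPM in CON, and 34.2 and 34.8 TPM in Med14 S983A against 46.0 and 44.4 TPM. The treated libraries lay below the controls in both genotypes, by −0.48 ± 0.05 (adjusted p = 1.03e-08) and −0.38 ± 0.05 (adjusted p = 3.12e-07), within 1.5-fold. The 2 genotypes differed in this by 0.10 ± 0.07 (adjusted p = 0.534). The Med14 S983A value passed 1.5-fold with DESeq2 and spike-in size factors only (−0.59).

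Nqo1, a quinone reductase often read as a marker of NRF2 activity, did not follow Srxn1 and Hmox1. Its highest level was in WT at 8 h Ex-4, 47.7 and 47.8 TPM against 33.8 and 35.0 TPM in CON, a change of 0.46 ± 0.06 (adjusted p = 3.16e-07), within 1.5-fold (0.61 with the spike-ins, which passed). After 16 h of FSK it was below CON in both genotypes on the TPM scale, within 1.5-fold. The levels were 25.8 and 25.3 TPM in WT (−0.42 ± 0.06) and 28.1 and 28.4 TPM in Med14 S983A (−0.34 ± 0.06). The size of these 16 h FSK values depends on the scaling. With the spike-ins the median of all genes there went from −0.20 to 0.16 in WT and from −0.10 to 0.12 in Med14 S983A. After 16 h of Ex-4, Nqo1 was 33.6 and 33.7 TPM in WT but 23.2 and 24.6 TPM in Med14 S983A, the lowest group for this gene. The Med14 S983A change was −0.58 ± 0.06 (adjusted p = 5.92e-09) and the difference in response −0.55 ± 0.08 (adjusted p = 1.02e-05), each just under 1.5-fold. The first passed with a pseudocount of 0.1 TPM (−0.59) and with the spike-ins (−0.68), and both passed without the second Med14 S983A CON replicate (−0.63 and −0.60) or the second 16 h Ex-4 replicate (−0.62 and −0.59); the difference passed with median centring (−0.68), with the spike-ins (−0.98) and with edgeR (−0.67).

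**Figure D3:**
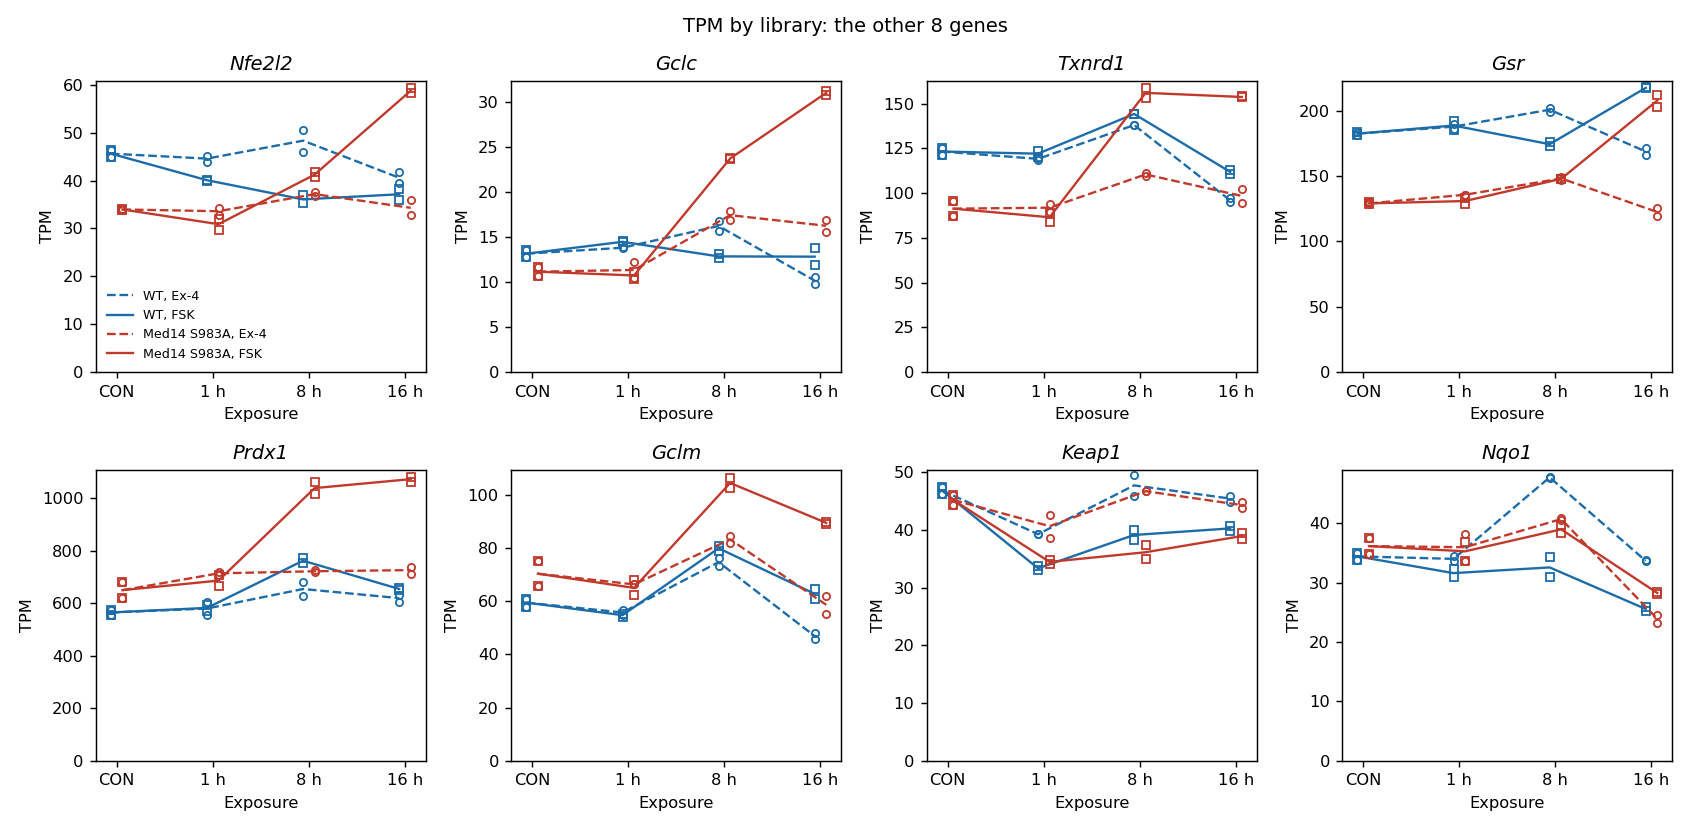
TPM of the other 8 genes in untreated cells (CON) and after 1, 8 and 16 h of Ex-4 (dashed, circles) or FSK (solid, squares), WT in blue and Med14 S983A in red; symbols are single libraries and lines join the means of 2. Gclc and Nfe2l2 climb in Med14 S983A with FSK to 31.3 and 59.3 TPM at 16 h while the WT libraries stay near or below CON on this scale.

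In Med14 S983A cells, then, 1 of the 10 genes was called at 1 h with either agent, 3 at 8 h Ex-4 (Srxn1, Hmox1 and Gclc), 5 at 8 h FSK (with Txnrd1 and Prdx1 in addition) and 7 at 16 h FSK (with Nfe2l2 and Gsr as well). Among all genes the share called higher was 2.03% at 1 h Ex-4, 3.19% at 1 h FSK, 3.21% at 8 h Ex-4, 11.6% at 8 h FSK and 12.2% at 16 h FSK. With 16 h of Ex-4 limma called none of the 10, against 4.73% of all genes called higher. In limma 8 of the 10 had an unadjusted p under 0.05, a count given without the share of all genes. Of the 10, edgeR called 2, DESeq2 2 and DESeq2 with spike-in size factors 1, again without the share of all genes under these tools. Gclm, Keap1 and Nqo1 were called against CON at no time in these cells on the TPM scale. Gclm at 16 h FSK, 0.35 ± 0.06 on that scale, was called with the spike-ins (0.59) and by DESeq2 with spike-in size factors (0.59). Beta cell marker levels differed along with these groups: 13 of 14 had a lower mean TPM than CON at both 8 and 16 h FSK in Med14 S983A (median ratio to CON 0.64 and 0.378), and 11 of 14 in WT (0.797 and 0.541). At 16 h FSK the transcription factor gene Neurod1 averaged 29.7 TPM in Med14 S983A, against 218 TPM in CON, and the zinc transporter gene Slc30a8 156.1 against 783.5 TPM. Their part in the results was not tested.

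Of the 60 tests of a difference in response between genotypes, 7 were called, each with the larger value in Med14 S983A. They were Gclc at 16 h Ex-4 (5.43% of all genes called in that direction), Hmox1, Gclc and Nfe2l2 at 8 h FSK (7.65%), and Gclc, Nfe2l2 and Txnrd1 at 16 h FSK (10.6%). At 16 h FSK the median difference over the 10 genes was 0.47, beside 0.08 over all genes, and 0.32 beside −0.07 with the spike-ins. No difference was called at 1 h Ex-4, 1 h FSK or 8 h Ex-4, where 0.672%, 1.64% and 2.77% of all genes were called in either direction; the count of unadjusted p under 0.05 among the 10 genes was 0 at 1 h Ex-4, 2 at 1 h FSK and 3 at 8 h Ex-4, and edgeR and DESeq2 called 0 in these 3 comparisons.

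**Figure D4:**
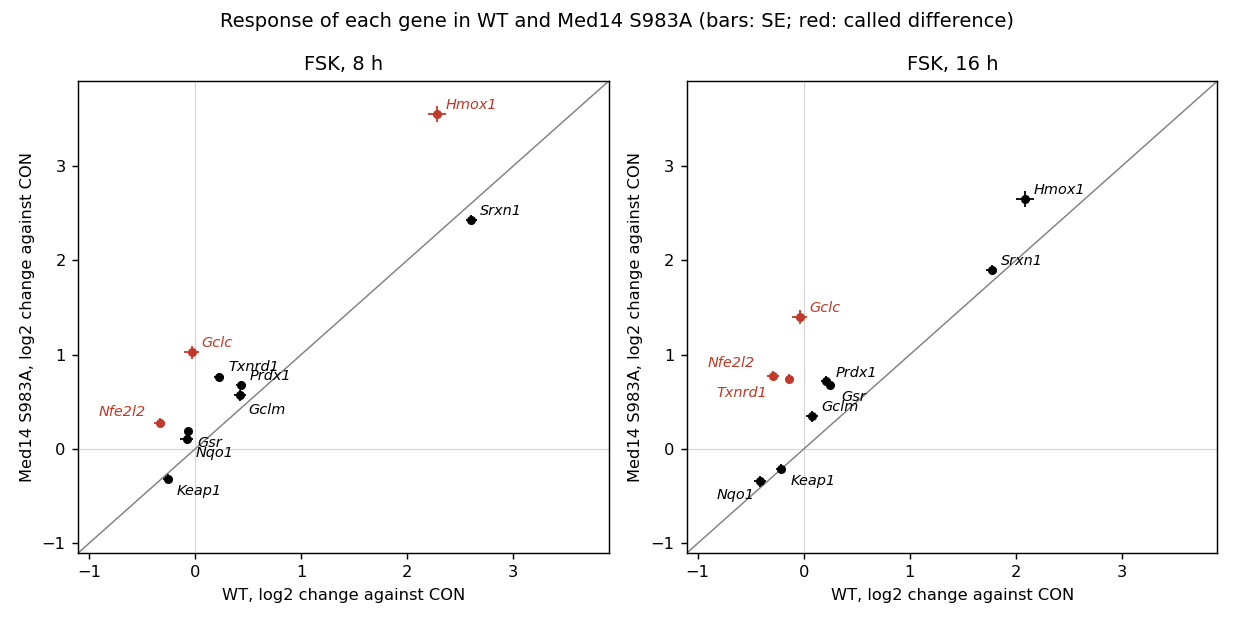
Log2 change against CON in WT (horizontal axis) and in Med14 S983A (vertical axis) for the 10 genes at 8 h FSK (left) and 16 h FSK (right); bars are SE, the diagonal marks equal response and red marks a called difference between genotypes. Gclc lies farthest above the diagonal at 16 h, with a difference of 1.43, and Srxn1 lies near it at both times.

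Before treatment, none of the 10 genes was called between Med14 S983A CON and WT CON, against 19.4% of all genes called in either direction. In limma 7 of the 10 had an unadjusted p under 0.05, a count given without the share of all genes and so no result about the 10 genes. Of the 10, edgeR and DESeq2 also called 0. The largest differences were in Gsr (−0.50 ± 0.03, adjusted p = 1.6e-12), Txnrd1 (−0.43 ± 0.04, adjusted p = 3.17e-09) and Nfe2l2 (−0.41 ± 0.05, adjusted p = 1.58e-07), all lower in Med14 S983A and without overlap between the groups on the TPM scale; with the spike-ins they were −0.29, −0.22 and −0.21. With the clones used, genotype and clone cannot be told apart. Prdx1, higher by 0.20 ± 0.05 in Med14 S983A, lies on chromosome 5 among genes that were higher as well: the median difference of its 50 nearest tested neighbours was 0.49.

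Ex-4 and FSK were also set against each other at matched times. Of 60 values 15 were called, all with the lower level in Ex-4 on the TPM scale. In the other direction, Nqo1 in WT at 8 h was higher with Ex-4 by 0.54 ± 0.06, under 1.5-fold; it was called with the spike-ins (0.67), with DESeq2 and spike-in size factors (0.71) and without the first WT 8 h FSK replicate (0.61). Nfe2l2 in WT at 8 h (0.41 ± 0.05) was called higher with Ex-4 by DESeq2 with spike-in size factors (0.59). Of the 15 calls with the lower level in Ex-4, Srxn1 made up 6. These ran from −0.60 ± 0.05 at 1 h in WT (adjusted p = 3.94e-09 by limma) to −1.47 ± 0.05 at 8 h in Med14 S983A (adjusted p = 2.13e-18 by limma). The 1 h value in WT fell to −0.57, under 1.5-fold, without the first WT 1 h FSK replicate. Hmox1 was lower with Ex-4 at 8 and 16 h in both genotypes, by −1.36 ± 0.08 to −2.63 ± 0.08. The other calls were in Med14 S983A at 16 h, where 7 of the 10 genes were called lower with Ex-4, among them Gclc (−0.89 ± 0.07), Nfe2l2 (−0.76 ± 0.05) and Gsr (−0.76 ± 0.03). Those for Gclm and Txnrd1 fell from −0.60 and −0.64 to −0.52 and −0.58 without the first Med14 S983A 16 h Ex-4 replicate, both then under 1.5-fold. In the same comparison Prdx1, at −0.56 ± 0.05, was just under 1.5-fold. It was called with median centring (−0.65), with the spike-ins (−0.92), with edgeR (−0.60) and with DESeq2 (−0.63). Nqo1 there, at −0.23 ± 0.06, was called by DESeq2 with spike-in size factors (−0.59). With median centring, edgeR or DESeq2, 6 rather than 2 genes were called lower with Ex-4 in Med14 S983A at 8 h. That count is given without the share of all genes in those settings. On the TPM scale limma called 1.14%, 4.77% and 7.29% of all genes lower with Ex-4 at 1, 8 and 16 h in WT. In Med14 S983A the shares were 1.58%, 6.72% and 5.76%.

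Around these genes stands a wider set of 127 genes of the same pathway, 103 of which were tested, in lists for NRF2 regulators, glutathione, thioredoxin, NADPH supply, heme and iron, detoxification and superoxide removal. In WT at 16 h FSK, 17 were called higher and 18 lower, 34.0% of those tested beside 34.5% of all genes. In Med14 S983A at 16 h FSK, 25 were called higher and 15 lower, 38.8% beside 33.3% of all genes. At 16 h Ex-4 the counts were 5 higher and 5 lower in WT and the same in Med14 S983A, 9.71% beside 11.8% and 11.9% of all genes. In these comparisons the wider set moved in both directions. For the difference in response at 16 h FSK, 21 were called higher and 6 lower in Med14 S983A, 26.2% beside 17% of all genes.

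Of the 13 tested regulators of NRF2, 3 were called higher and 1 lower in WT at 16 h FSK. In that comparison 1062 of all 10275 genes were called higher and 2478 lower, 34.5% in either direction. The counts of each list below stand beside that background and were not tested against it. Maff, a small MAF partner of NRF2, was 2.91 and 3.93 TPM in WT CON and 29.4 and 29.8 TPM at 16 h FSK, a change of 2.80 ± 0.09 (adjusted p = 1.32e-19). It had already reached 51.8 and 56.2 TPM at 1 h FSK. Mafk, another small MAF, rose by 1.13 ± 0.04, and Sqstm1, whose protein p62 captures KEAP1 for autophagy, rose by 1.02 ± 0.03 to 1190 and 1203 TPM. At 16 h Ex-4, Maff was the only call of this list, at 1.25 ± 0.09.

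Among 27 tested glutathione genes, 8 were called higher and 4 lower in WT at 16 h FSK, where 10.3% of all genes were called higher and 34.5% in either direction. Slc7a11, the cystine importer that feeds glutathione synthesis, was 0.128 and 0.133 TPM in WT CON and 9.36 and 10.7 TPM at 16 h FSK, a change of 3.29 ± 0.09 (adjusted p = 4.57e-21). In Med14 S983A it was 0.900 and 0.704 TPM in CON and 26.03 and 27.09 TPM at 16 h FSK. The libraries of the 2 genotypes did not overlap in either state, and Slc7a11 was called between genotypes at CON (0.67 ± 0.09). Which genotype responded more to 16 h of FSK depended on the pseudocount: the difference in response was 0.65 ± 0.12 with 1 TPM and −0.56 with 0.1 TPM. Mgst2, a microsomal glutathione transferase, rose by 1.69 ± 0.18 in WT at 16 h FSK. Glrx, glutaredoxin, went the other way, from 81.0 and 75.6 TPM in WT CON to 10.4 and 11.04 TPM, and it fell by 2.76 on the log2 scale (adjusted p = 7.03e-23).

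Of 17 tested thioredoxin genes 1 was called higher and 7 lower in WT at 16 h FSK. Msrb2, a mitochondrial methionine sulfoxide reductase, fell by 1.66 on the log2 scale; Prdx4 and Msra fell by 0.94 and 0.89, and these 2 calls were lost with the spike-ins (−0.54 and −0.53). Among the NADPH genes, Pgd of the pentose phosphate pathway rose by 0.81 ± 0.04, and mitochondrial Idh2 fell by 0.63, a call lost with median centring (−0.39) and with the spike-ins (−0.23). At 16 h Ex-4 in WT, Idh1 and Pgd rose by 0.80 ± 0.05 and 0.64 ± 0.04.

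Of 11 heme and iron genes 2 were called in WT at 16 h FSK, Fth1 for ferritin heavy chain (0.77 ± 0.03) and Tfrc for the transferrin receptor (0.64 ± 0.06), both higher. Of all genes, 10.3% were called higher there and 34.5% in either direction. Of 19 detoxification genes 1 was higher and 5 lower: Ephx1, microsomal epoxide hydrolase, rose by 1.24 ± 0.07 in WT, while Aldh1a1 and Ephx2 fell by 2.94 and 0.96. Ephx1 responded less in Med14 S983A, from 19.4 and 21.5 TPM to 21.5 and 23.6 TPM, a difference in response of −1.103 ± 0.099 (adjusted p = 1.05e-09), opposite in sign to the 7 differences called among the 10 genes. None of 4 superoxide dismutases and catalase was called in WT at 16 h FSK.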

How the data were processed

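RNA-seq libraries of INS-1 cells with added ERCC spike-ins were aligned by the authors with STAR 2.5.3a to rn6, and TPM over RefSeq exons were made with HOMER 4.11.1, the versions being those of the submitters' processing notes. The deposited TPM table holds 19131 transcripts and 92 ERCC sequences in 28 libraries; the authors also deposited read counts of the ERCC sequences. The study tested gene counts with DESeq2 1.24.0 and ERCC size factors; those gene counts were not used here. TPM fix the total of each library, so the level of a gene depends on that of the others. Reads from gene copies or overlapping genes may be assigned to either.

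Here 1 transcript per symbol was kept (1676 dropped), genes averaging 1 TPM or more were tested, and limma 3.58.1 (R 4.3.3) was fitted to log2(TPM + 1) with 14 groups, 14 residual degrees of freedom, a mean trend and Benjamini-Hochberg adjustment within each of 25 comparisons, two-sided. A pseudocount understates changes of low genes. A call needed an adjusted p under 0.05 and a change over 1.5-fold. Alternatives were a pseudocount of 0.1 TPM, no filter and one at 5 TPM, median centring, ERCC-scaled TPM, fewer libraries, a replicate block, leaving out each library, no fold minimum, and edgeR 4.0.16 and DESeq2 1.42.0 on fragments recovered from TPM and transcript length and scaled to the ERCC counts. These fragments are estimates rounded to whole numbers, and so is depth. ERCC took 0.736% to 1.15% of fragments.

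Groups came from the sample titles. The study's methods call the libraries of a group biological replicates but do not say that they came from separate cultures; p-values measure the spread between these libraries. Replicates differed by more than counting noise (chi-square per degree of freedom 2.47 to 9.83). The substitution in Med14 cannot be checked from TPM. The 10 genes and the wider lists were chosen with earlier results of these data known. Genes of the wider lists were named by a rule: in each list, up to 3 called genes of largest change at 16 h Ex-4 in WT, 16 h FSK in WT and between genotypes at CON; values of those genes in other comparisons were added after they were seen. On simulated data for 16 h Ex-4 in WT over 10275 genes, limma recovered 97 of 100 genes changed 2-fold and 100 of 100 changed 3-fold, with 4 wrong calls. The simulation used a single assumed dispersion, changed only well-covered genes and left every other group unchanged. Changes near 1.5-fold were not simulated, so recovery there is not known. One result among the wider lists is not reported here.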

Additional observations from a re-analysis of the deposited data

Results flagged for a closer look

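A difference between the genotypes in their response passed the test of the difference itself for 7 values, each given as the log2 response of Med14 S983A minus that of WT. With FSK at 8 h these were Hmox1 (1.2666), Gclc (1.0555) and Nfe2l2 (0.6036). With FSK at 16 h they were Gclc (1.4344), Nfe2l2 (1.0632) and Txnrd1 (0.8851). With Ex-4 at 16 h it was Gclc (0.8483). The Nfe2l2 value at 8 h FSK fell under 1.5-fold with median centring (0.55), with the spike-ins (0.50), with edgeR and with DESeq2. The Gclc value at 16 h Ex-4 fell under it with the spike-ins (0.44). In the opposite direction, Nqo1 at 16 h Ex-4 (−0.55) was not called on the TPM scale but passed with median centring (−0.68), with the spike-ins (−0.98) and with edgeR (−0.67).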

How the results depend on the processing

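No called value of the 10 genes changed sign under the alternatives run. Of all 250 values, 55 changed sign with median centring and 42 with ERCC-scaled TPM, Nfe2l2 in WT after FSK among them. Dropping the fold minimum moved the counts most: calls among the 10 genes went from 26 to 77 for treatment, from 0 to 7 between genotypes at CON, from 7 to 21 for the difference in response and from 15 to 39 for Ex-4 against FSK, and those of the wider NRF2 pathway genes from 461 to 1319 over the 25 comparisons. The share of all genes that pass without a fold minimum is not given here, so these larger counts are not a result about the 10 genes. The same holds for the counts of unadjusted p under 0.05 and of calls by edgeR, DESeq2 or another scaling given above. Under the other alternatives every count stayed within 1.5 times its value. Leaving out each library in turn gave 24 to 27 calls for treatment, 0 for genotype at CON, 6 to 9 for the difference in response, 13 to 16 for Ex-4 against FSK and 447 to 471 in the wider lists; the lowest treatment count was without the second WT CON replicate. Of the 250 member values, 237 kept their call with median centring and 238 with ERCC-scaled TPM. Treatment calls numbered 31 with edgeR, 32 with DESeq2 and 32 with DESeq2 and ERCC size factors. Replicate numbers do not pair the samples: deviations of same-numbered libraries correlated from −0.28 to 0.28 over 91 pairs of groups, with 17 above 0.1. With the replicate number as a block the counts were again 26, 0, 7 and 15, and 250 of 250 calls were unchanged. With 2 libraries a group, values close to 1.5-fold depend on single libraries, and gene counts of the study were not analysed here.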

Other observations

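Between the genotypes at CON, 13 genes of the wider lists were called higher in Med14 S983A and 7 lower, 19.4% of those tested and 19.4% of all genes. The largest was Gpx3, a secreted glutathione peroxidase, at 96.4 and 91.4 TPM in WT CON and 1.005 and 0.829 TPM in Med14 S983A CON, a change of −5.63 ± 0.08 (adjusted p = 2.79e-26 by limma). It was at or below 1.005 TPM in all 14 Med14 S983A libraries. In the opposite direction, Ptgr1, prostaglandin reductase 1, was 2.62 and 2.43 TPM in WT CON and 30.9 and 28.7 TPM in Med14 S983A CON (3.12 ± 0.09), and Nqo2, a quinone reductase related to Nqo1, was 1.04 and 0.958 TPM against 13.05 and 12.54 TPM (2.79 ± 0.10). The 2 groups of each of these 3 genes did not overlap, while Nqo1 itself differed by 0.07 ± 0.06.

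The other genes named by the rule in this comparison were Pgd (1.63), Akr7a2 (1.21), Nadk (0.98), Blvrb (0.93), Ggct (0.90) and Cul3 (0.79), all higher in Med14 S983A, and Me3 (−1.26), Msrb2 (−1.04), Gstm5 (−0.97) and Pgam5 (−0.67), all lower; Pgam5 was not called with median centring (−0.58) or with the spike-ins (−0.47). Several of them lay among neighbours that differed the same way. The median difference of the nearest tested neighbours was 0.93 for Pgd, 0.85 for Nadk and 0.64 for Akr7a2, all on chromosome 5, 0.85 for Cul3 on chromosome 9 and −0.79 for Pgam5 on chromosome 12, but −0.05 for Gpx3, −0.12 for Ptgr1 and −0.07 for Nqo2.

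In WT at 16 h Ex-4 the genes named by the rule and not given above were Slc7a11 (0.79 ± 0.09) and Mgst2 (0.62 ± 0.18), called higher, and Glrx (−1.01 ± 0.06), Msrb2 (−1.04 ± 0.07), Aldh1a1 (−0.94 ± 0.09), Sesn3 (−0.79 ± 0.09) and Slc40a1 (−0.59 ± 0.10), called lower. The call of Sesn3 was lost with the spike-ins (−0.49), and that of Slc40a1, the iron exporter, both with the spike-ins (−0.38) and with median centring (−0.40).

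Over the 14 group means, and among 7676 genes averaging 10 TPM or more, the patterns most like that of Hmox1 were those of Cycs (Pearson r = 0.978), Rab5if (0.976) and Alkbh3 (0.972), and those most like that of Nfe2l2 were Tcp1 (0.899), Mat1a (0.895) and Agpat5 (0.873). These are descriptions: the groups share genotype and control libraries.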
